A study of Mus musculus with 8 samples.

Results

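The nuclear-encoded subunits of mitochondrial oxidative phosphorylation were followed in wk3 cells, an SLP-65-/- mouse pre-B cell line that is kept proliferating by interleukin 7 (IL-7). Members were chosen by the name that the array design gives a gene: every non-control probe for a gene whose name starts with Nduf, Uqcr, Cox4, Cox5, Cox6, Cox7, Cox8 or Atp5, and the genes Sdha, Sdhb, Sdhc and Sdhd. The rule took 134 of 55681 probes and 90 of 34797 named genes or features. It used no measured value. Of the 90 genes, 36 encode subunits of complex I, 4 of complex II, 8 of complex III, 19 of complex IV, including tissue isoforms, and 15 of complex V. The other 8 carry a name of this kind but are no subunit of a complex: the complex I assembly factors Ndufaf1, Ndufaf2, Ndufaf3 and Ndufaf4, the supercomplex factor Cox7a2l, Cox4nb (now Emc8, of the endoplasmic reticulum membrane complex), and Atp5s and Atp5sl (now Dmac2l and Dmac2). Ndufa4 and its isoform Ndufa4l2 were placed with complex IV, where the protein is now counted. Subunits written in mitochondrial DNA are not analysed here.

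The cells had been infected with a retroviral vector and selected with puromycin. The vector carried either a sponge, whose RNA offers decoy sites to microRNAs of the miR-15 family, or as a control a scrambled version of it. There were 4 groups of 2 arrays: sponge cells 36 h after IL-7 was removed, sponge cells in excess IL-7, scrambled cells 36 h after IL-7 was removed, and scrambled cells in excess IL-7. All 4 groups share the SLP-65-/- genotype, the wk3 line and the puromycin-selected vector backbone, and each of the 2 repetitions used its own independently derived cells. Pre-B cells deprived of IL-7 are known to stop dividing and to differentiate, so both states change along with the withdrawal.

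The 5 complexes work in sequence in the inner mitochondrial membrane. Complex I takes electrons from NADH and complex II from succinate, complex III passes them from coenzyme Q to cytochrome c, and complex IV hands them to oxygen. Complexes I, III and IV pump protons as they do so, and complex V, the ATP synthase, uses the return of those protons to make ATP. Most subunits are written in the nucleus, and the transcription factors NRF1, GABP of the ETS family, YY1 and MYC are known to bind promoters of such genes. Dividing lymphocytes express them strongly.

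The sponge was directed at the microRNAs below, printed 5′ to 3′ from RefSeq (GRCm38.p6) because the bases in capitals, positions 2 to 8, are the seed that they share and that a decoy site has to pair with.
miR-15a-5p: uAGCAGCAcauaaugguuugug
miR-15b-5p: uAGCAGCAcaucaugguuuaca
miR-16-5p: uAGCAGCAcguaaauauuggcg
miR-195a-5p: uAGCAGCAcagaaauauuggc
miR-322-5p: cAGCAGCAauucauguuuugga
miR-497a-5p: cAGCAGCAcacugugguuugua
All 6 have the seed AGCAGCA, whose complementary site in a DNA probe reads TGCTGCT. Among the probes that represent the measured members, 1 of 87 held that site (1.15%), against 245 of 21349 over all genes tested (1.15%). It was the probe for Atp5c1, the γ subunit of the ATP synthase, at mm9 chromosome 2 between positions 9977788 and 9980644, and 29 of its bases are shown with the site in capitals.
Atp5c1: atctctgggacTGCTGCTctggattaatg
A probe covers 60 bases, so the letters say nothing about the rest of these transcripts.

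Motifs of those factors were then looked for in the promoters. RefSeq promoter windows (GRCm38.p6, 300 bases, mostly upstream of the start) were found for 74 of the 90 members and for 27025 genes in all. The NRF1 motif GCGCANGCG was found on either strand in 21 of 74 members (28.4%), against 7.03% of all genes with a promoter. The ETS motif CCGGAAG was found in 17 of 74 (23%), against 9.93%. The YY1 motif AAGATGG was found in 12 (16.2%, against 7.28%), the CRE motif TGACGTC in 6 (8.11%, against 3.6%), and the E-box CACGTG, a MYC site among others, in 7 (9.46%, against 8.09%). At least 1 of the NRF1 and ETS motifs stood in 32 of 74 members (43.2%, against 15.5%). These are letter matches within a window, not sites shown to be bound.

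The promoters of the 3 genes for subunit c of the ATP synthase are shown because these genes encode the same mature protein from separate promoters, and that of Cox7a2l because it moved against most members. Letters in capitals match one of the 5 motifs on either strand. Atp5g1 is at chr11:96075582-96075881, Atp5g2 at chr15:102670998-102671297, Atp5g3 at chr2:73911277-73911576 and Cox7a2l at chr17:83514284-83514583, all on the minus strand of GRCm38.p6.
Atp5g1: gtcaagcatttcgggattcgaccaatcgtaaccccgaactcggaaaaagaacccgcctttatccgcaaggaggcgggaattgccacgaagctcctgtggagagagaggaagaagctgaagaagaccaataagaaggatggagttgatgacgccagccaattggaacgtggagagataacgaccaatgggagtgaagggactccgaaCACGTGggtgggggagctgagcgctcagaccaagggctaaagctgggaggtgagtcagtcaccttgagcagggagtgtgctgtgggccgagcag
Atp5g2: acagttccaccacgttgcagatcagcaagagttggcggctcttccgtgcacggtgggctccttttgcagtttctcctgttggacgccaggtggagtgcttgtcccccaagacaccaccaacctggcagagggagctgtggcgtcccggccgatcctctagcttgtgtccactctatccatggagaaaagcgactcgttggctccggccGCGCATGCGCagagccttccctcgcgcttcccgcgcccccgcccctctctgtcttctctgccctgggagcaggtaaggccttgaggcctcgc
Atp5g3: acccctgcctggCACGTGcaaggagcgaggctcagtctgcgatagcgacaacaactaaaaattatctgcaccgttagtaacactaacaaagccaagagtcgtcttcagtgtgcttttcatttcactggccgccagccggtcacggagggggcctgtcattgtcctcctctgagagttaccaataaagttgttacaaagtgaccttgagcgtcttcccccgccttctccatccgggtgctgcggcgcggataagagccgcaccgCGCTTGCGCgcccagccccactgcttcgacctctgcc
Cox7a2l: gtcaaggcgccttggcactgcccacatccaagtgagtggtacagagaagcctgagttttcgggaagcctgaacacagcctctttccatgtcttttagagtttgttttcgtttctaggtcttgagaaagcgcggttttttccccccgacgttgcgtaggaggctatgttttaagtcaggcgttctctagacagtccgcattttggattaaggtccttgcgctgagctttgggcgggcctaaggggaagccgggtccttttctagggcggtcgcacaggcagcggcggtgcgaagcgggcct
In Atp5g1 the capitals are an E-box. In Atp5g2 they are a palindrome that holds the NRF1 motif on both strands. In Atp5g3 they are an E-box far from the start and an NRF1 motif close to it. In Cox7a2l none of the 5 motifs was found. On withdrawal in scrambled cells, defined below, the 21 measured members with an NRF1 motif had a median log2 change of -0.50 and the 51 with a promoter but without the motif also had -0.50.

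Levels are given as the log2 of the processed signal minus the array's own 75th percentile, so that a level of 0 is the brightness that 75% of the spots do not exceed and a step of 1 is a doubling. A probe was kept if in 1 or more of the groups the scanner software marked both arrays as well above background, and the brightest kept probe stood for its gene. Kept in this way were 87 of the 90 genes, 86 of them above background on all 8 arrays. Cox7b2, Cox8b and Cox8c, isoforms known from testis or muscle, were well above background on 0 arrays and were not tested. The spots of measured members were bright, which depends on the probe as well as on the RNA. Their median level over the arrays was 5.15, against -0.03 for the 21349 genes tested, and 57 of 87 were in the brightest 10% of all genes. Mean levels below 0 were seen for the tissue isoforms Cox4i2, Cox6a2, Cox6b2 and Ndufa4l2 and for Atp5s.

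Between the 2 arrays of a group, the members differed by a median of 0.0889 in sponge cells without IL-7, 0.0614 in sponge cells with IL-7, 0.0422 in scrambled cells without IL-7 and 0.0769 in scrambled cells with IL-7, on the log2 scale. On each array 50.6% to 56.6% of the spots were well above background and 0 were saturated. The pre-B markers Cd79a, Cd79b, Vpreb1, Igll1, Pax5, Ebf1, Rag1 and Il7r were above background on all 8 arrays, whereas Cd3g, Ncr1, Col1a1, Dcn and Pdgfrb, which mark T cells, natural killer cells and stroma, were above it on 0. Other markers of the same cells were above it on all 8, namely Cd3e, Cd4 and Lck of T cells, Klrb1c and Nkg7 of natural killer cells and Col1a2 of stroma, as were Itgam, Csf1r and Elane of myeloid cells and Sdc1, Prdm1 and Xbp1 of plasma cells. On withdrawal these lists moved in no single direction. Called higher and lower were 0 and 0 of 3 measured T cell markers in sponge cells and 1 and 1 in scrambled cells, 0 and 1 of 5 myeloid markers and 1 and 1, and 1 and 1 of 3 plasma cell markers and 2 and 1. In the last list Sdc1 changed by -0.59 in sponge cells and -1.79 in scrambled cells, and Prdm1 by 1.09 and 1.36. Of the pre-B markers Rag1 changed by 3.43 and 3.59, whereas Igll1 had 6.78 and 6.84 without IL-7, against 7.05 and 7.24 with IL-7, in sponge cells, and 6.97 and 6.91, against 7.28 and 7.38, in scrambled cells. The part of such shifts in the results was not tested. Ccne1, a known target of miR-15 and miR-16, had 4.15 and 4.06 in sponge cells without IL-7, against 1.38 and 0.38 in scrambled cells without IL-7. Blnk, the gene for SLP-65, read between 7.16 and 8.24 on all arrays. The probe cannot serve as a check of the genotype, since its place relative to the deleted part is not given in the sources used here. All 8 arrays lay on 1 slide and were scanned once, with the IL-7 arrays in 1 column and the arrays without IL-7 in the other. In both columns the scrambled arrays lay in rows 1 and 2 and the sponge arrays in rows 3 and 4. So slide column and IL-7 cannot be told apart, and neither can slide row and sponge. A lower share of the cells that express a gene and less of its RNA per cell cannot be told apart in such bulk RNA either.

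**Figure D1:**
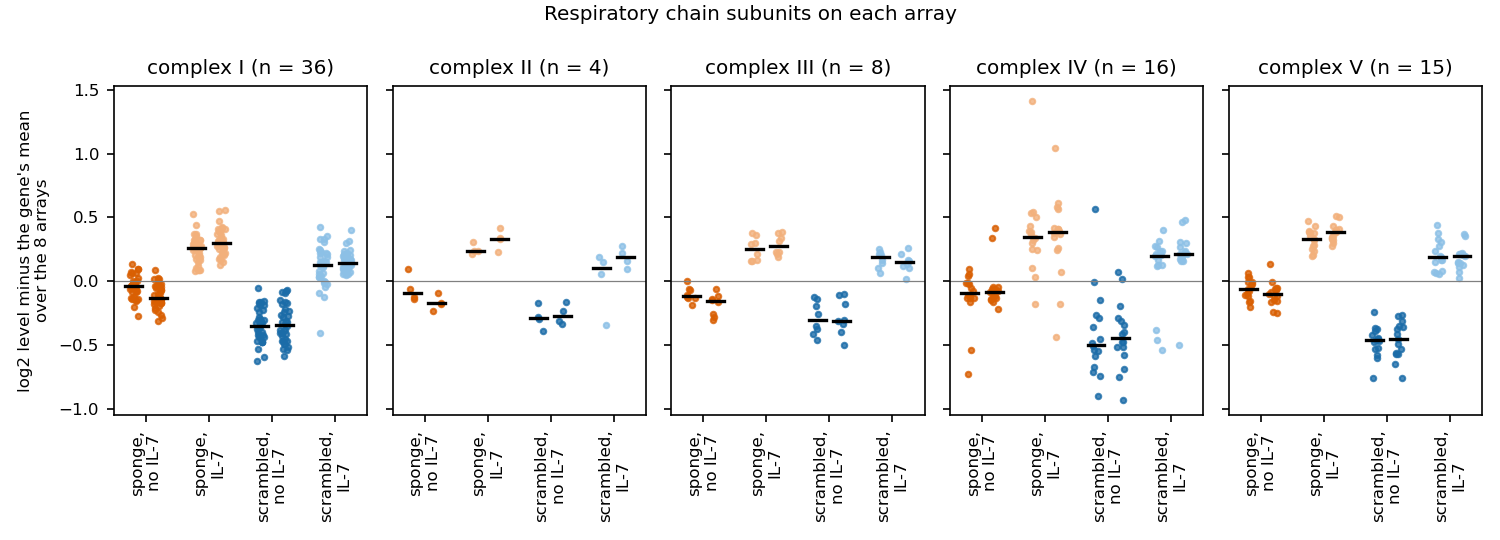
Each point is 1 measured gene on 1 array: its log2 level minus that gene's own mean over the 8 arrays, on the vertical axis. Panels are complexes I to V, n is the number of genes, the 2 columns of a group are its 2 arrays and black bars are medians. In every panel the bars of scrambled cells without IL-7 are the lowest and those of sponge cells with IL-7 the highest.

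Most members were lower without IL-7 than with it in both kinds of cell. A gene was called where limma's moderated test, adjusted by Benjamini-Hochberg over all 21349 genes, gave an adjusted p under 0.05. In sponge cells 64 of 87 members were called lower and 0 higher, where 15.2% of all genes were lower, 7.94% higher and 23.2% either. In scrambled cells 71 were called lower and 4 higher, where 27.4% of all genes were lower, 20.7% higher and 48.1% either. The median log2 change of the members was -0.40 in sponge cells and -0.49 in scrambled cells, against -0.06 and -0.02 over all genes, so that the median member stood at 0.759 and 0.711 of its level with IL-7. The count in sponge cells rested on every sponge array. Leaving out any of them lowered it, as it lowered the share of all genes called, and a lone array is assumed to vary like the other groups. The members' median change in sponge cells was then -0.42 without sponge with IL-7 replicate 1 and -0.35 without replicate 2. It was -0.42 without sponge minus IL-7 replicate 1 and -0.36 without replicate 2. Where dim probes were not filtered out, 31 of 90 members were called lower in sponge cells, with 7.61% of all genes called in either direction. The arrays without IL-7 did not overlap those with IL-7 in 83 of 87 members in sponge cells, where 66% of all genes were so separated, and in 83 of 87 in scrambled cells, where 75% were. Across the 87 members the 2 withdrawal effects, which share no array, correlated with Pearson's r of 0.627 and Spearman's rho of 0.6. Across the 79 of them in complexes I to V these were 0.454 and 0.538. Over all 21349 genes these were 0.728 and 0.737, and genes on the same arrays are not independent points.

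The size of this decrease depended on how the arrays were scaled. After withdrawal the brightest spots came down relative to the 75th percentile: the level that 1% of spots exceeded stood 6.95 to 6.99 above it on the 4 arrays without IL-7 and 7.39 to 7.43 above it on the 4 with IL-7. The 2135 genes of the brightest 10% had a median log2 change of -0.34 in sponge cells and -0.42 in scrambled cells, and the 57 members among them had -0.39 and -0.49. Quantile normalization, which gives every array the same distribution, as the authors' deposited value table also has, takes most of that shift away. Under it the median over all 87 members was -0.10 in sponge cells and -0.20 in scrambled cells, against -0.01 and 0.03 over all genes. Called lower were then 8 members in sponge cells, with 2 higher, and 38 in scrambled cells, with 4 higher. In either direction these were 11.5% of the members in sponge cells, against 19% of all genes, and 48.3% in scrambled cells, against 47.9%. Of all genes called in sponge cells, 51.6% were higher under quantile normalization and 34.3% with the 75th percentile. In scrambled cells these shares were 51.5% and 43.1%. The 57 members in the brightest 10% then had medians of -0.06 in sponge cells and -0.07 in scrambled cells, against -0.0004 and -0.03 for all genes there. With genes ranked by level in steps of 10%, the members just below the brightest step, 14 in number, had a median of -0.22 in sponge cells and -0.29 in scrambled cells under quantile normalization, where all genes of that step had 0.02 and 0.04. The next step down held 6 members with -0.29 and -0.50, and the one below it 5 with -0.21 and -0.60. These members are not all subunits of a complex. The 14 include Atp5sl, the 6 include Cox4nb and Ndufaf3, and the 5 include Ndufaf1, Ndufaf2 and Ndufaf4. A gene is therefore described below as lower under both scalings where it was called with each.

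**Figure D2:**
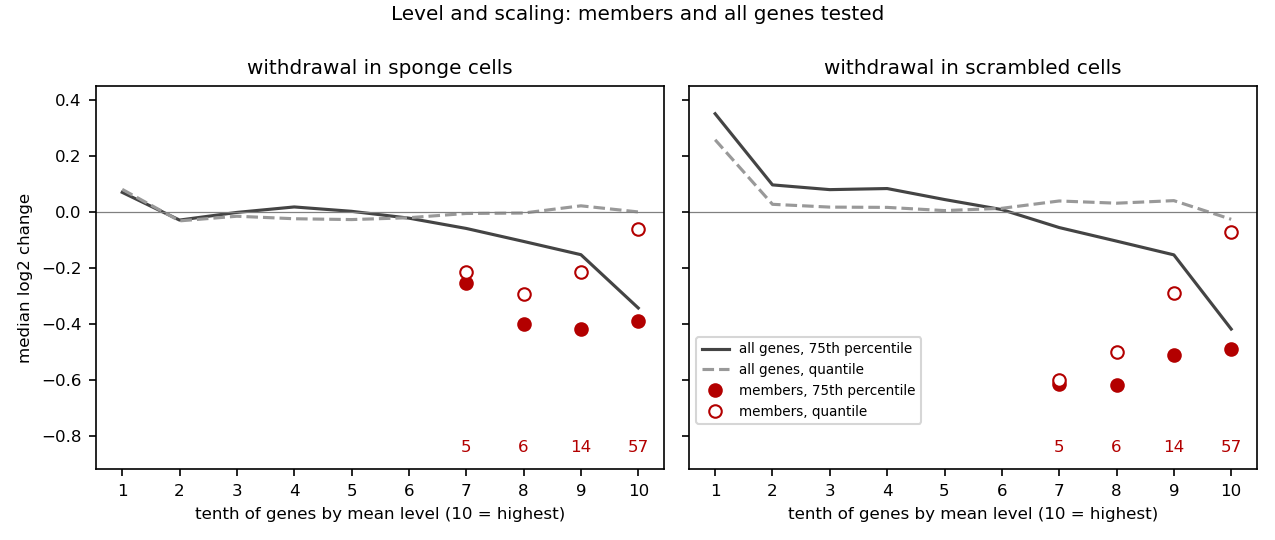
Median log2 change on IL-7 withdrawal (vertical axis) in sponge cells, left, and scrambled cells, right, for 10 equal bins of the genes by mean level (horizontal axis). Lines are all genes tested, points are members, filled or solid for scaling on the 75th percentile and open or dashed for quantile normalization. Red digits give the members in a bin, and bins with fewer than 5 members have no point. With the 75th percentile the line of all genes falls to -0.34 and -0.42 in the brightest bin, close to the 57 members there.

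Complex I, the NADH dehydrogenase, had a median log2 change of -0.35 in sponge cells and -0.48 in scrambled cells, with 25 and 31 of 36 subunits called lower and 0 higher in either. All 36 changes were below 0 in both with the 75th percentile, and 26 in sponge cells and 27 in scrambled cells under quantile normalization. Its N module, which binds NADH, had 8 of 8 subunits called lower in sponge cells and 7 of 8 in scrambled cells, the Q module, which reduces coenzyme Q, 3 of 8 and 6 of 8, and the membrane arm 14 of 20 and 18 of 20. Under quantile normalization 1 of the 36 subunits was called lower in sponge cells and 13 in scrambled cells. Of all genes, 19% and 47.9% were called in either direction under that scaling, and 51.6% and 51.5% of those calls were higher. The quantile counts of complexes II to V below stand against the same shares.

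Ndufa10, an accessory subunit of the membrane arm, had the largest change of complex I in sponge cells. It had 2.83 and 2.79 without IL-7, against 3.46 and 3.66 with IL-7, in sponge cells. Scrambled cells had 2.62 and 2.61 without IL-7, against 3.43 and 3.42 with IL-7. The 4 values without IL-7 were below the 4 with it, the log2 changes were -0.75 ± 0.09 in sponge cells and -0.81 ± 0.09 in scrambled cells (SE, limma adjusted p = 0.0044 and 0.00091), and both were called under quantile normalization as well.

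Ndufv2, an iron-sulfur subunit of the N module, had the largest change of complex I in scrambled cells. It had 4.87 and 4.87 without IL-7, against 5.20 and 5.39 with IL-7, in sponge cells, and 4.32 and 4.33, against 5.22 and 5.12, in scrambled cells. The arrays did not overlap in either, with log2 changes of -0.42 ± 0.09 in sponge cells and -0.85 ± 0.09 in scrambled cells (SE, limma adjusted p = 0.023 and 0.00084), of which only the second was called under quantile normalization. Ndufv1, which binds NADH and the flavin, had 5.38 and 5.25 without IL-7, against 5.83 and 5.87 with IL-7, in sponge cells, a log2 change of -0.54 that was not called under quantile normalization (limma adjusted p = 0.010 and 0.077). The smallest changes in scrambled cells belonged to Ndufs3 and Ndufs1, core subunits, at -0.16 and -0.21, and these were not called.

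Complex II, succinate dehydrogenase, also belongs to the tricarboxylic acid cycle and has no subunit from mitochondrial DNA. Its median log2 change was -0.41 in sponge cells and -0.38 in scrambled cells, with 2 and 3 of 4 called lower. Under quantile normalization the medians were -0.13 and -0.0026, with 0 and 1 called lower. Sdha, the flavoprotein, had 4.71 and 4.62 without IL-7, against 5.09 and 5.09 with IL-7, in sponge cells. Scrambled cells had 4.69 and 4.69 without IL-7, against 5.01 and 4.95 with IL-7. The changes were -0.42 ± 0.07 and -0.29 ± 0.07 (SE, limma adjusted p = 0.011 and 0.016), and in scrambled cells the sign turned to 0.0037 under quantile normalization and 0.0026 in the deposited table. Sdhb, the iron-sulfur subunit, had 5.98 and 5.92 without IL-7, against 6.34 and 6.43 with IL-7, in sponge cells. In scrambled cells Sdhb had 5.81 and 5.79 without IL-7, against 6.29 and 6.26 with IL-7. It changed by -0.43 in sponge cells and -0.48 in scrambled cells (limma adjusted p = 0.011 and 0.0028), and neither call held under quantile normalization.

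Sdhc and Sdhd anchor the complex in the membrane. Sdhc had 3.72 and 3.69 without IL-7, against 3.99 and 4.12 with IL-7, in sponge cells, and 3.39 and 3.45, against 3.84 and 4.06, in scrambled cells. Its change was -0.35 in sponge cells and -0.53 in scrambled cells (limma adjusted p = 0.052 and 0.0068), and the second was called. Sdhd had 5.23 and 4.96 without IL-7, against 5.44 and 5.55 with IL-7, in sponge cells. Scrambled cells had 4.85 and 4.90 without IL-7, against 4.79 and 5.35 with IL-7, and these overlapped. Neither change of Sdhd, -0.40 in sponge cells and -0.20 in scrambled cells, was called. The first scrambled array with IL-7 also read low for Ndufc2, at 4.34 beside 5.15 on the second, and for Cox6c, at 5.29 beside 6.06, and none of these 3 genes was called on withdrawal in scrambled cells.

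Complex III, the cytochrome bc1 complex, had 8 of 8 subunits called lower in sponge cells and 7 of 8 in scrambled cells, with medians of -0.43 and -0.49. Under quantile normalization 1 and 3 were, with medians of -0.11 and -0.10. Uqcr10, a small subunit, had 5.28 and 5.19 without IL-7, against 5.70 and 5.71 with IL-7, in sponge cells. Scrambled cells had 4.88 and 4.84 without IL-7, against 5.56 and 5.55 with IL-7. The changes were -0.47 ± 0.07 and -0.70 ± 0.07 (SE, limma adjusted p = 0.0075 and 0.00070), and only that in scrambled cells was called under quantile normalization. Uqcrfs1, the Rieske iron-sulfur protein, had 4.53 and 4.36 without IL-7, against 4.959 and 4.996 with IL-7, in sponge cells. It changed by -0.53 there and by -0.49 in scrambled cells (limma adjusted p = 0.010 and 0.0055), and was lower under both scalings in each. Uqcrc1, a core protein, had 3.71 and 3.78 without IL-7, against 4.22 and 4.35 with IL-7, in scrambled cells, a change of -0.54 that was called under both scalings.

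Complex IV, cytochrome c oxidase, has common subunits and tissue isoforms, and all measured isoforms but Cox7a1 had mean levels below 0. Of the 11 common subunits, 10 were called lower in sponge cells and 10 in scrambled cells, with medians of -0.43 and -0.70. Of the 5 tissue isoforms measured, 2 and 1 were. Under quantile normalization 4 of all 16 were called lower in sponge cells and 9 in scrambled cells. Of the common subunits these were 2 and 8, with medians of -0.11 and -0.33. Of the isoforms they were 2 and 1, with medians of -0.26 and -0.24. In sponge cells the common subunits thus did not fall more than the isoforms under that scaling. Ndufa4 had 5.47 and 5.29 without IL-7, against 5.96 and 6.01 with IL-7, in sponge cells. Scrambled cells had 4.75 and 4.68 without IL-7, against 5.64 and 5.64 with IL-7. Its changes of -0.61 ± 0.09 and -0.92 ± 0.09 (SE, limma adjusted p = 0.0073 and 0.00064) were called under both scalings.

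Cox7a1, the isoform known from heart and skeletal muscle, was well above background on all arrays and changed most of the subunits of this complex in scrambled cells. It had 1.54 and 1.55 without IL-7, against 2.21 and 2.29 with IL-7, in sponge cells. Scrambled cells had 0.93 and 0.74 without IL-7, against 1.99 and 2.13 with IL-7. The changes were -0.70 ± 0.10 and -1.23 ± 0.10 (SE, limma adjusted p = 0.0066 and 0.00042), both called under quantile normalization. Its common counterpart Cox7a2 changed by -0.38 in sponge cells, from arrays at 5.22 and 5.12 without IL-7 and 5.52 and 5.57 with IL-7, and by -0.67 in scrambled cells, from arrays at 4.68 and 4.59 without IL-7 and 5.29 and 5.32 with IL-7.

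Cox6a2, the other muscle isoform, was dim and had the largest change of any member in sponge cells. It had -3.16 and -3.23 without IL-7, against -1.73 and -2.11 with IL-7, in sponge cells. Scrambled cells had -4.04 and -3.56 without IL-7, against -3.68 and -3.65 with IL-7, and these overlapped. Its log2 change was -1.28 ± 0.19 in sponge cells, called under both scalings, and -0.14 ± 0.19 in scrambled cells (SE, limma adjusted p = 0.0084 and 0.59). The common Cox6a1, at 8.003 and 7.891 without IL-7 and 8.36 and 8.39 with IL-7 in sponge cells, changed by -0.43, and by -0.70 in scrambled cells, where it had 7.51 and 7.54 without IL-7 and 8.29 and 8.18 with IL-7.

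Of the remaining isoform pairs, Cox4i1, the common form, had 7.22 and 7.14 without IL-7, against 7.60 and 7.60 with IL-7, in sponge cells, and 7.07 and 7.07, against 7.59 and 7.57, in scrambled cells. It changed by -0.42 and -0.52 (limma adjusted p = 0.0099 and 0.0017), and in sponge cells turned to 0.010 under quantile normalization and 0.0099 in the deposited table. Cox4i2, a form known from lung, lay between -1.65 and -1.30 on all arrays and was not called. Cox6b1 had 3.19 and 3.31 without IL-7, against 3.65 and 3.73 with IL-7, in sponge cells, and 2.81 and 2.87, against 3.63 and 3.63, in scrambled cells, and was lower under both scalings in each, whereas its testis form Cox6b2 ranged from -2.67 to -1.56 without any call. Cox7b had 5.34 and 5.31, against 5.70 and 5.79, in sponge cells and 5.09 and 5.11, against 5.58 and 5.67, in scrambled cells, without IL-7 given before with IL-7, for changes of -0.42 and -0.52. Cox8a had 7.05 and 7.08 without IL-7, against 7.59 and 7.57 with IL-7, in sponge cells, and 6.58 and 6.65, against 7.40 and 7.37, in scrambled cells, for changes of -0.52 and -0.77. Ndufa4l2, known from hypoxic cells, lay between -5.20 and -4.07 and was not called.

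Complex V, the ATP synthase, had 14 of 15 subunits called lower in sponge cells and 15 of 15 in scrambled cells, with medians of -0.41 and -0.63. Within it the medians were -0.39 and -0.47 for the F1 head, -0.44 and -0.73 for the peripheral stalk, -0.59 and -0.82 for the genes of the c ring, and -0.37 and -0.62 for the small membrane subunits, with the value in sponge cells given before that in scrambled cells. Under quantile normalization the medians of the complex were -0.07 and -0.20, with 0 and 8 called lower. Atp5o, the peripheral stalk subunit OSCP, had 4.46 and 4.49 without IL-7, against 4.92 and 4.95 with IL-7, in sponge cells, and 3.96 and 3.89, against 4.92 and 4.74, in scrambled cells. It changed by -0.46 ± 0.08 and -0.91 ± 0.08 (SE, limma adjusted p = 0.015 and 0.000615), and the second was called under both scalings.

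Subunit c of the membrane ring is written in 3 genes, and whether their changes differ from each other was not tested. Atp5g2 had 7.35 and 7.29 without IL-7, against 7.93 and 7.97 with IL-7, in sponge cells. Scrambled cells had 6.70 and 6.70 without IL-7, against 7.90 and 7.83 with IL-7. The arrays with IL-7 lay close together in both kinds of cell, and those without IL-7 lay lower in scrambled than in sponge cells. The changes were -0.63 ± 0.07 and -1.17 ± 0.07 (SE, limma adjusted p = 0.0040 and 0.00027), of which the second was called under both scalings and the first was not called under quantile normalization (adjusted p = 0.066).

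Atp5g3 had 6.51 and 6.32 without IL-7, against 7.01 and 7.01 with IL-7, in sponge cells, and 6.043 and 5.9999, against 6.90 and 6.78, in scrambled cells, for changes of -0.59 and -0.82. Atp5g1 had 5.17 and 5.23 without IL-7, against 5.48 and 5.60 with IL-7, in sponge cells, and 4.497 and 4.535, against 5.16 and 5.12, in scrambled cells, for changes of -0.35 and -0.62. The second probe for Atp5g1, at mm9 chromosome 11 from 95930317 to 95930376 and annotated to another transcript, went the other way in scrambled cells, with a log2 change of 0.30. Both probes for Atp5g2 changed alike, by -0.66 and -0.63 in sponge cells and by -1.07 and -1.17 in scrambled cells. Of the 30 members with several kept probes, 26 had probes of 1 sign in each kind of cell; the exceptions were Atp5j, Ndufa3, Ndufb5 and Ndufv3 in sponge cells and Atp5g1, Atp5j, Ndufa3 and Ndufb5 in scrambled cells.

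**Figure D3:**
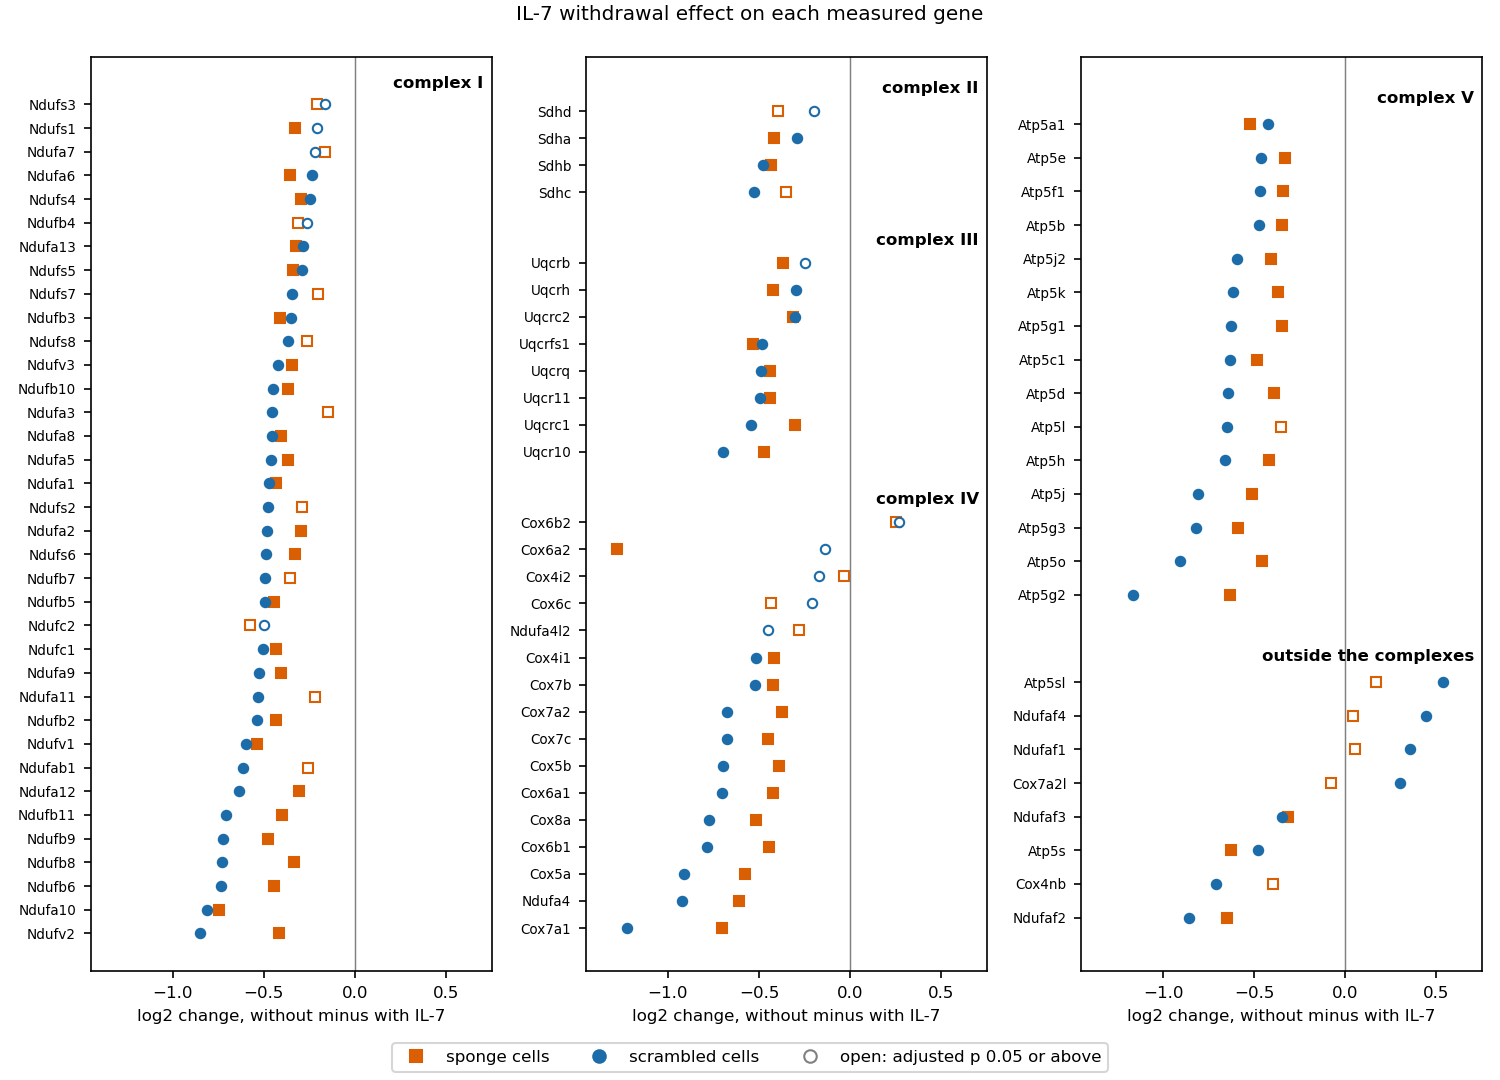
Log2 change on IL-7 withdrawal (horizontal axis) for each of the 87 measured genes (rows), as squares for sponge cells and circles for scrambled cells. Filled symbols have an adjusted p under 0.05. Nearly all symbols of complexes I to V are left of 0, with Cox6b2 the only gene of a complex on the right, and 4 of the 8 genes outside the complexes have their circles on the right.

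The 8 genes that are not subunits divided evenly in scrambled cells, with 4 called higher and 4 lower, all of them under both scalings. The count of higher genes was 1 without scrambled without-IL-7 replicate 2 and 2 without scrambled with-IL-7 replicate 2, and Cox7a2l and Ndufaf4 were not called in either. Cox7a2l, which helps complexes III and IV to join, had 7.31 and 7.32 without IL-7, against 7.36 and 7.43 with IL-7, in sponge cells. Scrambled cells had 7.89 and 7.90 without IL-7, against 7.67 and 7.51 with IL-7. Its changes were -0.08 ± 0.08 in sponge cells and 0.30 ± 0.08 in scrambled cells (SE, limma adjusted p = 0.53 and 0.024). Quantile normalization turned the change in sponge cells to 0.37, which was called higher. All 3 of its probes rose in scrambled cells, by 0.27 to 0.34.

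Atp5sl, with 4.21 and 4.30 without IL-7, against 3.75 and 3.68 with IL-7, rose by 0.54 in scrambled cells. The assembly factor Ndufaf4, with 2.16 and 2.36, against 1.87 and 1.77, in the same order, rose by 0.44, and Ndufaf1 rose by 0.35 (limma adjusted p = 0.0040, 0.019 and 0.014). None of the 3 was called in sponge cells with the 75th percentile. Under quantile normalization Atp5sl was called higher there, and Ndufaf4 and Ndufaf1 were not called. The differences between the effects were -0.37, -0.40 and -0.30, and none was called (limma adjusted p = 0.15, 0.20 and 0.19). Ndufaf2 went down, from arrays at 1.75 and 1.65 without IL-7 and 2.31 and 2.39 with IL-7 in sponge cells, and 1.26 and 1.21 without IL-7 and 2.13 and 2.05 with IL-7 in scrambled cells. Its changes of -0.65 and -0.86 were called under both scalings. Atp5s changed by -0.63 in sponge cells and -0.48 in scrambled cells, and Cox4nb by -0.40, which was not called, and -0.71, which was.

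While IL-7 was present, sponge and scrambled cells differed in few called members. Of 87 members 1 was called higher in sponge than in scrambled cells and 0 lower, where 0.314% of all genes were higher, 0.815% lower and 1.13% either, and 23 members had an unadjusted p under 0.05, as had 4152 of the 21349 genes. The median log2 difference was 0.13, against 0.01 over all genes, and 0.06 under quantile normalization. The arrays did not overlap in 63 of 87 members, where 50.6% of all genes were so separated. The call was Cox6a2, at -1.73 and -2.11 in sponge cells, against -3.68 and -3.65 in scrambled cells, a difference of 1.75 ± 0.19 (SE, limma adjusted p = 0.024). With the replicate number as a block the adjusted p was 0.059, and with another background correction, normexp on the raw signal, the difference was 0.65. Leaving out a single array also ended the call for 5 of the 8: scrambled with IL-7 replicate 1 (limma adjusted p = 0.078), sponge with IL-7 replicate 1 (0.097) or 2 (0.076), and sponge without IL-7 replicate 1 or 2 (0.075 each).

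After IL-7 had been removed the members stood higher in sponge cells than in scrambled cells. Called higher were 43 of 87 and called lower 2, where 16.7% of all genes were higher, 15.3% lower and 32.1% either. The median log2 difference was 0.26, against -0.05 over all genes. The arrays did not overlap in 76 of 87 members, where 72.7% of all genes were so separated. Under quantile normalization 32 were called higher and 4 lower, with a median of 0.13, against -0.04 over all genes. In either direction these were 41.4% of the members, against 34.9% of all genes, of whose calls 48.1% were higher. Leaving out any of the arrays minus IL-7 lowered the count of higher members, as it lowered the share of all genes called. The members' median was then 0.27 without replicate 1 and 0.30 without replicate 2 of the sponge arrays minus IL-7. Without those of the scrambled arrays minus IL-7 it was 0.26 and 0.29. Where dim probes were not filtered out, 23 of 90 members were called higher, with 14.1% of all genes called in either direction.

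The counts by complex ran as follows. Called higher were 12 of 15 subunits of complex V (median 0.40), 9 of 16 of complex IV (0.41), 17 of 36 of complex I (0.25), 3 of 8 of complex III (0.14) and 0 of 4 of complex II (0.19). Under quantile normalization these were 9, 9, 10, 2 and 0, in the same order. No test compared the complexes, since genes are not replicates of a condition.

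Among the largest was Atp5g1, with 5.17 and 5.23 in sponge cells, against 4.497 and 4.535 in scrambled cells, a difference of 0.68 ± 0.08 (SE, limma adjusted p = 0.0020). Its second probe had 4.39 and 4.36 in sponge cells, against 4.63 and 4.68 in scrambled cells, and so went the other way. Cox7a1 had 1.54 and 1.55 in sponge cells, against 0.93 and 0.74 in scrambled cells, and differed by 0.71 ± 0.10 (adjusted p = 0.0038 by limma). Ndufab1, the mitochondrial acyl carrier protein, had 1.49 and 1.44 in sponge cells, against 0.73 and 0.88 in scrambled cells, a difference of 0.66 (adjusted p = 0.0029 by limma). Uqcr10 had 5.28 and 5.19, against 4.88 and 4.84, and differed by 0.38. Each of these 4 was called under both scalings, and in each the lowest sponge array stood above the highest scrambled array.

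The 2 members called lower in sponge cells were Cox7a2l and Atp5sl, both outside the complexes. Cox7a2l had 7.31 and 7.32 in sponge cells, against 7.89 and 7.90 in scrambled cells, a difference of -0.58 ± 0.08 (SE, limma adjusted p = 0.0039). Atp5sl had 3.80 and 3.62, against 4.21 and 4.30, a difference of -0.54. Both were called under quantile normalization too. The assembly factor Ndufaf2, at 1.75 and 1.65 in sponge cells against 1.26 and 1.21 in scrambled cells, was instead higher by 0.47.

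**Figure D4:**
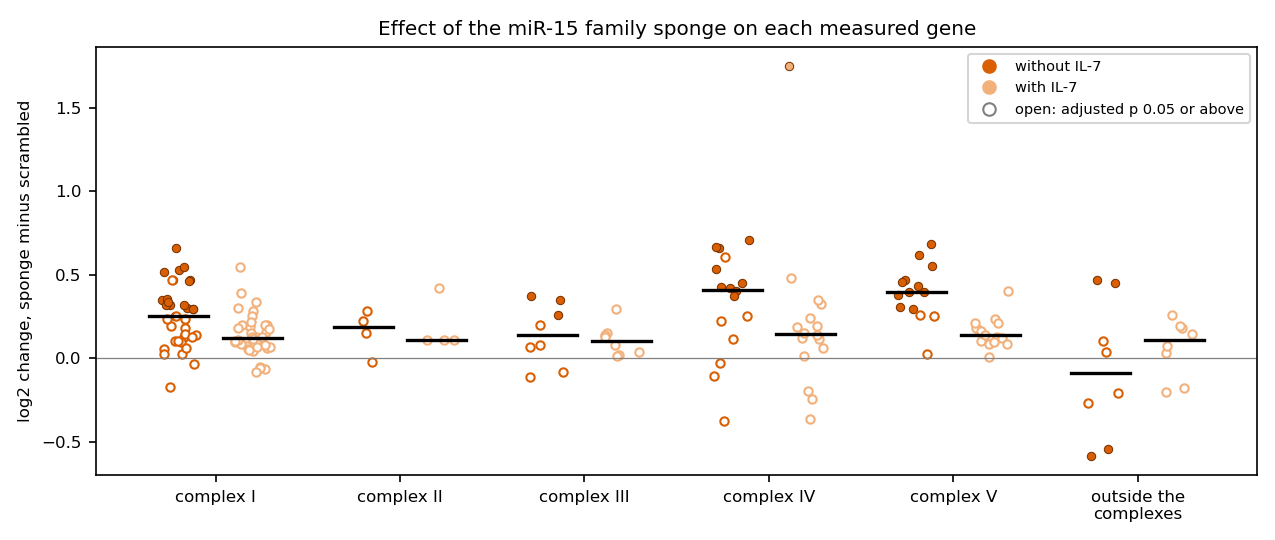
Log2 difference between sponge and scrambled cells (vertical axis) for each measured gene, without IL-7 (left, dark) and with IL-7 (right, pale) within each complex. Filled points have an adjusted p under 0.05 and black bars are medians. Without IL-7 the medians are 0.40 for complex V and 0.41 for complex IV, and with IL-7 the single filled point is Cox6a2 at 1.75.

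Whether the sponge changed the withdrawal effect was tested as the difference between the 2 effects. Of 87 members 1 was called higher, meaning a smaller decrease or larger rise in sponge cells, and 0 lower, where 4.32% of all genes were higher, 0.951% lower and 5.27% either. At an unadjusted p under 0.05 there were 23 members, and 4947 of the 21349 genes. The difference was above 0 in 63 of 87, with a median of 0.13, against 9657 of 21349 genes and a median of -0.04 overall. By complex it was above 0 in 14 of 15 members of complex V, 13 of 16 of complex IV, 27 of 36 of complex I, 4 of 8 of complex III and 2 of 4 of complex II, and under quantile normalization in 14, 13, 22, 4 and 1. This contrast uses the same arrays as the sponge comparison without IL-7 and does not stand apart from it.

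The member called was Atp5g2, whose withdrawal effect was -0.63 in sponge cells and -1.17 in scrambled cells, a difference of 0.53 ± 0.10 (SE, limma adjusted p = 0.041). The adjusted p was 0.029 under quantile normalization, and 0.064 both with the replicate block and, where the difference was 0.47, with the mean of its 2 probes. Without the filter on dim probes it was 0.13. Leaving out any array other than scrambled with IL-7 replicate 2 also ended the call, with adjusted p between 0.086 and 0.15. Cox6a2 had the lowest difference, -1.14, which was not called (limma adjusted p = 0.072).

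**Figure D5:**
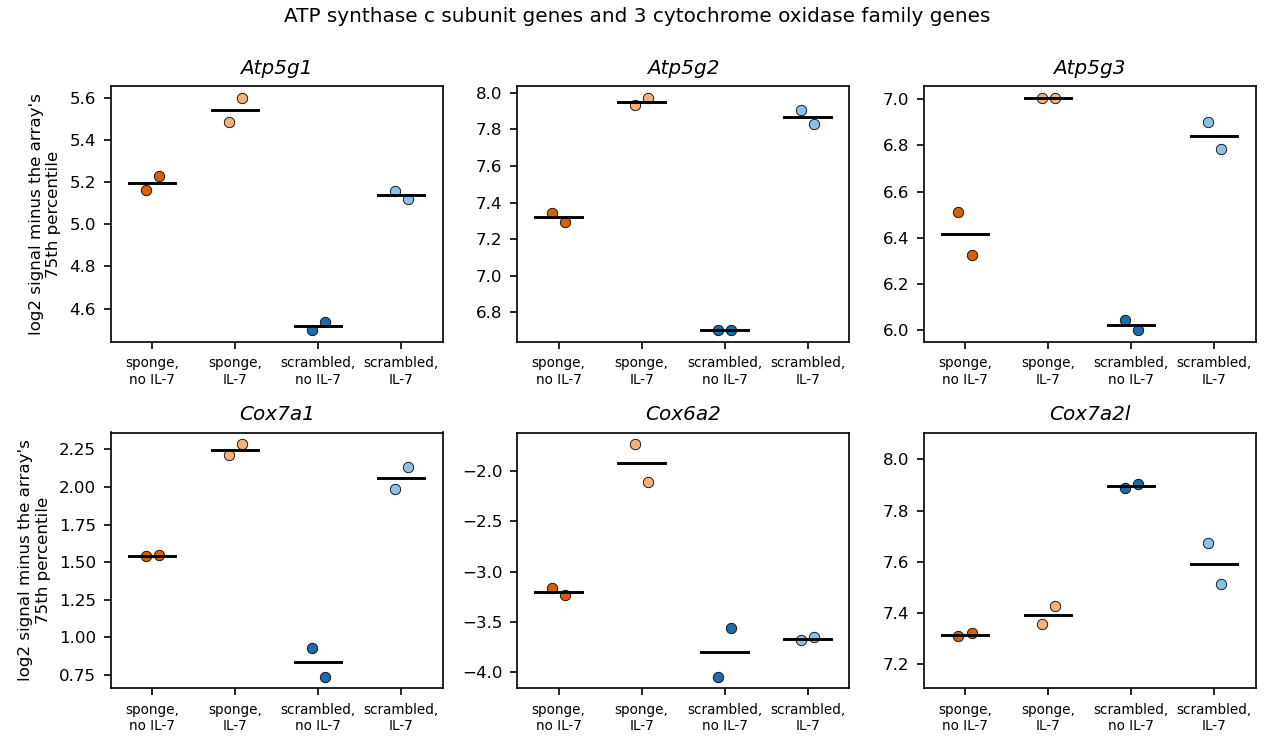
Level on each array (points, log2 signal minus the array's 75th percentile) and group mean (bar) of the 3 ATP synthase subunit c genes and of Cox7a1, Cox6a2 and Cox7a2l, with 2 arrays a group and a vertical scale of its own per gene. Atp5g2 is near 7.9 in both groups with IL-7, near 7.3 in sponge cells without it and at 6.70 in scrambled cells without it. Cox6a2 is raised in sponge cells with IL-7 and Cox7a2l in scrambled cells without it.

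Lists of other mitochondrial genes, drawn up from general knowledge, mostly held more lower than higher calls on withdrawal, where 15.2% of all genes were lower in sponge cells and 27.4% in scrambled cells. Of 14 electron carriers and proteins coupled to the chain, such as cytochrome c, the adenine nucleotide carriers and the electron transfer flavoproteins, 11 were called lower in sponge cells and 13 in scrambled cells, and 0 higher. The largest were Vdac1, the outer membrane channel, at -0.72 in sponge cells, and Etfa, an electron transfer flavoprotein, at -0.99 in scrambled cells. Slc25a5, an adenine nucleotide carrier, changed by -0.55 and -0.88, and the ATP synthase inhibitor Atpif1 by -0.79 in scrambled cells. Of 76 mitochondrial ribosomal proteins, 34 and 53 were lower and 0 higher, led by Mrpl23 in sponge cells (-0.66) and Mrps25 in scrambled cells (-1.15). Under quantile normalization 18 and 36 were lower and 0 and 6 higher, where 19% and 47.9% of all genes were called in either direction.

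Of 16 enzymes of the tricarboxylic acid cycle and pyruvate dehydrogenase, 10 were called lower in sponge cells and 11 in scrambled cells, among them fumarase, Fh1, at -0.68 and -0.98, and Idh3a at -1.04 in scrambled cells. Sdha, Sdhb, Sdhc and Sdhd are not in that list. Of 17 import and folding factors 8 and 9 were lower, with Timm50 at -1.22 in scrambled cells and the chaperone Hspa9 at -0.63 and -0.64. Of 24 assembly factors outside the naming rule, 7 and 9 were lower and 0 and 4 higher, and Cox18, a complex IV factor, changed by -0.44 and -0.71. Lyrm7, a complex III factor, and Atpaf1, a complex V factor, were called higher in scrambled cells, but their spots were dim. Atpaf1 had -4.57 and -4.84 without IL-7, against -5.94 and -5.37 with IL-7, where the lowest level well above background on the array at -5.94 was also -5.94, so no size is given. Of 10 genes of coenzyme Q synthesis 4 and 5 were lower and 1 and 1 higher, with Pdss1, which makes the side chain, at -0.48 and -1.02. Under quantile normalization the counts lower were 5 and 8 for the carriers, 3 and 4 for the tricarboxylic acid cycle, 6 and 5 for import, 7 and 8 for assembly and 4 and 5 for coenzyme Q. Higher were then 0 of these lists' genes in sponge cells and, in scrambled cells, 0, 2, 1, 5 and 2, in the same order. Of all genes, 19% in sponge cells and 47.9% in scrambled cells were then called in either direction. Of those calls 51.6% and 51.5% were higher.

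Of 10 measured regulators of nuclear respiratory genes, 2 were lower and 0 higher in sponge cells and 3 lower and 2 higher in scrambled cells, shares close to those of all genes. Under quantile normalization 2 were lower and 1 higher in sponge cells, and 2 lower and 3 higher in scrambled cells. Myc had -2.02 and -1.93 without IL-7, against -0.46 and -0.35 with IL-7, in sponge cells. Scrambled cells had -2.96 and -3.07 without IL-7, against -0.38 and -0.29 with IL-7. Its changes were -1.57 ± 0.09 and -2.67 ± 0.09 (SE, limma adjusted p = 0.0016 and 2.3e-04), and the difference between them was 1.104 (adjusted p = 0.031 by limma). The coactivator Ppargc1b changed by -0.75 and -1.27, but its spots were dim. It had -3.74 and -3.64 without IL-7, against -2.91 and -2.97 with IL-7, in sponge cells. Scrambled cells had -4.43 and -4.98 without IL-7, against -3.45 and -3.42 with IL-7. The nuclear receptor Esrra rose by 0.64 in scrambled cells. The part of Myc in the members' change was not tested. In mitochondrial DNA upkeep, with 7 genes measured, Tfb1m changed by -0.68 and -1.53, and Tfb2m and Ssbp1 rose by 0.36 and 0.32 in scrambled cells.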

How the data were processed

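Total RNA of 8 wk3 cell samples was hybridised to 1-colour Agilent arrays annotated to mm9. The deposited intensity values are the background-subtracted processed signals of Agilent Feature Extraction, whose version is 10.7.1.1 per the submitters' processing notes and 10.7.3.1 per the file headers. The deposited value table holds linear intensities that have the same distribution on every array, the property of quantile normalization, by a step of the authors that is not given in the sources used here, and its log2 served as an alternative. From the signals, log2 minus the array's 75th percentile was computed, control and outlier-flagged spots were left out, and spots of a probe were averaged. The 4 group means and 5 contrasts were fitted with limma 3.58.1 in R 4.3.3 over 21349 genes, with Benjamini-Hochberg adjustment. The fit had 4 residual degrees of freedom and a prior of 1.811, and the number of arrays limits the precision. The steps were tested on simulated data. Tables and figures used pandas 2.3.3 and matplotlib 3.10.9. Members and lists were chosen with earlier results of these data known.

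Genes with per-array values were the called members with the 2 largest rises and falls per complex and withdrawal contrast, the largest in each other contrast, the Sdh genes and isoform pairs, and from each list the 3 largest called changes. Same-numbered arrays share a repetition, per the series' design text, and their deviations from group means correlated at 0.0169 to 0.131. Alternatives were quantile normalization, the deposited table, normexp with an offset of 50, no filter or a stricter filter on dim probes, a replicate block, the mean over probes, a trended robust prior, each array left out and, chosen after seeing the data, centring on the median of all genes.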

Additional observations from a re-analysis of the deposited data

Results flagged for a closer look

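The withdrawal effect of Atp5g2 differed between sponge and scrambled cells by a test of the difference itself. The log2 change was -0.63 in sponge cells and -1.17 in scrambled cells, a difference of 0.532 (limma adjusted p = 0.041). The second probe gave a difference of 0.41. The call was lost with the replicate block, without the filter on dim probes, with the mean over probes, and without any single array other than scrambled with IL-7 replicate 2.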

How the results depend on the processing

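Counts below are of 87 members, or of 90 without the filter on dim probes and 86 with the stricter filter. Relative medians are the members' median log2 change minus that of all genes. Under quantile normalization and, after the slash, the deposited table, withdrawal in sponge cells gave 8 / 8 lower, 2 / 2 higher and a relative median of -0.0892 / -0.0899. Withdrawal in scrambled cells gave 38 / 38 lower and -0.231 / -0.230. Of all genes, 19% / 18.9% were then called in either direction in sponge cells and 47.9% / 47.9% in scrambled cells. Sponge against scrambled cells gave 4 / 4 lower and 0.164 / 0.166 without IL-7, and 0.0552 / 0.0561 with IL-7. Reversed were Cox4i1 in sponge cells, to 0.0103 / 0.0099, and Sdha in scrambled cells, to 0.0037 / 0.0026. Both scalings force a common upper tail, and the cause of the shift they remove was not tested.

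Without the filter on dim probes, withdrawal in sponge cells gave 31 lower and a relative median of -0.230, and that in scrambled cells -0.288. Sponge against scrambled cells then gave 23 higher and 0.390 without IL-7, and 0 higher and 0.208 with IL-7, and the difference of effects 0 higher. The difference gave 3 higher and 2 lower with normexp, 1 lower with probes above background on all 8 arrays, 0 higher with the mean over probes, and 6 higher and 2 lower with the trended robust prior, under which the sponge with IL-7 gave 7 higher.

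With the replicate block, which pairs arrays of a repetition, sponge with IL-7 gave 0 higher and the difference 0 higher. Withdrawal then gave 56 lower in sponge cells and 69 in scrambled cells, and sponge without IL-7 gave 41 higher and 2 lower. Over all genes the block, fitted with limma, left 0 called for the difference.

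Leaving out 1 array at a time gave 12 to 66 lower on withdrawal in sponge cells, 1 to 4 higher and 56 to 70 lower in scrambled cells, 0 to 4 higher for sponge with IL-7, 16 to 44 higher for sponge without IL-7 and 0 to 1 higher for the difference. The lowest count came without sponge without-IL-7 replicate 2 for withdrawal in sponge cells, and without scrambled without-IL-7 replicate 2 for withdrawal in scrambled cells and for sponge without IL-7. In each of these the share of all genes called was also the lowest. Of the values for named members under all alternatives, 887 kept direction and call, 112 lost the call and 4 reversed. With 2 arrays a group, small differences between complexes could not be resolved.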
